A study of Mus musculus with 5 samples.

Results

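Tnfrsf9 and 9 other genes of T cell costimulation and immune checkpoints (Tnfsf9, Tnfrsf4, Tnfrsf18, Cd274, Pdcd1lg2, Pdcd1, Ctla4, Havcr2 and Lag3) were described in tumor endothelial cells (TECs) of hepatoma. The members were all probes whose gene name on the array was 1 of these 10, which gave 12 of 56605 probes and 10 of 37074 gene names. Tnfrsf9 was chosen by its normalized signal, which earlier work on these arrays had found higher in every TEC sample, and the other members were added for their function with those results known. The ratios of TECs to liver endothelium are therefore given as a description, with no test.

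RNA of 5 samples, 1 per condition, was labelled with Cy3 and read on 5 mouse arrays. Liver sinusoidal endothelial cells (LSECs) came from mouse liver, and TECs came from tumors of the hepatoma lines HAK-1B, Hepa1-6 and KYN-2 grown in the liver, the first and last of human and Hepa1-6 of mouse origin. The fifth array held cultured Hepa1-6 cells. The labels give the strain C57BL/6 to LSECs and to every TEC sample and C57L to the cultured cells, whereas the methods name female mice, 6 weeks old, of C57BL/6 or of the nude BALB/c nu/nu strain, without a host for each line. Nude mice lack a thymus and have few mature T cells. TECs were the cells of digested tumors that anti-CD31 magnetic beads retained, and the line that the labels call HAK-1B appears as Huh-7 in the array methods. Whether animals were pooled is not given in the sources used here. No treatment was given for these groups in the labels.

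T cells need a second, costimulatory signal beside the antigen receptor, and several of the receptors that give it, such as Tnfrsf9, Tnfrsf4 and Tnfrsf18, belong to the TNF receptor superfamily and signal through TRAF adaptors to NF-kB. Checkpoint receptors such as Pdcd1, Ctla4, Havcr2 and Lag3 restrain activated T cells when they meet their ligands, among them Cd274 and Pdcd1lg2. In the liver, sinusoidal endothelium presents antigen to passing T cells and carries inhibitory ligands. These genes are best known from lymphocytes, but myeloid cells express Havcr2 and the ligands, and activated endothelium is known to express Tnfrsf9.

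The probes are 60 bases long and are placed on mm9, as the array design gives them. For the 2 genes with more than 1 probe, the last 30 bases of each probe are shown, because the probes of Lag3 differed in the arrays on which they were above background and those of Tnfrsf9 did not. Capitals mark ATTAAA, a variant of the polyadenylation signal, which lies in the Tnfrsf9 probe near the end of the transcript.
Tnfrsf9 A_55_P2831060, chr4:150320145-150320204: cagctaaaaatATTAAAgttgtgctcttac
Tnfrsf9 A_55_P2082180, chr4:150319101-150319160: taacatatttgtctttaccttttttaaatc
Lag3 A_51_P264825, chr6:124854570-124854866: ctgccttagaacatgggattcagccatttc
Lag3 A_66_P119717, chr6:124859333-124859392: agctgaaactttcctgttactgccccaagt

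The Lag3 probe A_51_P264825 covers 297 bases of the genome with its 60 bases, and every other member probe covers 60. The remaining members had 1 probe each, at chr17:57247062-57247121 for Tnfsf9, chr4:155390639-155390698 for Tnfrsf4, chr4:155402941-155403000 for Tnfrsf18, chr19:29462363-29462422 for Cd274 and chr19:29545473-29545532 for Pdcd1lg2. The probes of Pdcd1, Ctla4 and Havcr2 lie at chr1:95935064-95935123, chr1:60971801-60971860 and chr11:46294650-46294709. All 12 probes are named by a RefSeq accession that carries the same symbol in RefSeq. Exons and untranslated regions of mm9 were not annotated here.

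The promoter of Tnfrsf9 is shown because this gene was the member called higher in all 3 TECs. RefSeq (GRCm38.p6) places 2 starts of Tnfrsf9, both on the plus strand, and the 150 bases before each are printed. Capitals mark letters of an NF-kB motif, of an AP-1 motif (TGANTCA) and of an interferon-gamma activated site, GAS (TTCNNNGAA).
Tnfrsf9 first start, chr4:150920005-150920154: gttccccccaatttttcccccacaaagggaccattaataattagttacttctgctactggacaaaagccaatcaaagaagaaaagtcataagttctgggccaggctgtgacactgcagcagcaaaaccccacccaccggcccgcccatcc
Tnfrsf9 second start, chr4:150927849-150927998: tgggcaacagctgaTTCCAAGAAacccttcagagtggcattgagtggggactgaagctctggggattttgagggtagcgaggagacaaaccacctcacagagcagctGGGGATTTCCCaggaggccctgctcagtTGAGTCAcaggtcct

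The stretch before the second start held a GAS match at -136, 2 overlapping NF-kB matches at -43 and -42 and an AP-1 match at -15, counted from the start to the first base of each match. Neither strand of the first window held a match to these motifs or to the core of the interferon-stimulated response element, over the 250 bases before and 50 after the start that each window spans. Among the 9 windows of the 8 members with an entry, NF-kB, AP-1 and GAS each had a match in 2, counting Pdcd1lg2, Havcr2 and Tnfrsf18 beside Tnfrsf9, and the response element core in 0. Of 32851 mouse promoter windows of the same length, 8.46% held the NF-kB motif, 7.81% AP-1, 8.30% GAS and 3.44% the response element core. A match describes the letters of the window and not a site in use. Tnfsf9 and Lag3 were the members without an entry.

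Signals are given as the log2 of the background-subtracted intensity after quantile normalization over the 5 arrays, and a gene with several probes is represented by the probe with the highest mean. Levels are read within a probe only. A gene was called against LSEC by the study's rule of size, which asks for a ratio of 1.5 or more and a Z-score, over the probes kept in that comparison, of 2 or more, or for 0.66 and -2 or less. In practice the Z-score asked for 7.25-fold in HAK-1B TECs, 11.4-fold in Hepa1-6 TECs, 6.79-fold in KYN-2 TECs and 39.8-fold in cultured Hepa1-6 cells. Where a probe was not well above background on 1 side, the fold is a lower bound, written "at least", taken against the higher of its own signal and the lowest signal well above background on that array. All comparisons use the same LSEC array, so an error on it enters each of them. No condition had a replicate, and the only error in the files is the scanner's error model for a spot, which gave an SD of 0.20 to 0.33 on the log2 scale for member ratios measured on both arrays and does not cover the spread between animals. The LSEC array, the 3 TEC arrays and the array of cultured cells were on 3 separate slides, so that group and slide cannot be told apart.

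The label of the endothelial samples was checked against markers. All 11 pan-endothelial genes were well above background on the LSEC and the 3 TEC arrays, but their summed signal was 388000 in LSEC and between 59800 and 106000 in TECs, and all 14 macrophage genes were also well above background on these arrays. Cultured Hepa1-6 cells had 3 of the 11 endothelial genes above background. The Hepa1-6 TEC array stood apart, with 78.7% of all genes well above background, against 55.9% in LSEC, 58.6% in HAK-1B TECs, 56.4% in KYN-2 TECs and 47.2% in cultured cells. It also held the summed hepatoma genes at 135000, between 1630 in LSEC and 299000 in cultured cells. In such mixed samples fewer cells of a type and less RNA per cell cannot be told apart.

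Of the 10 members, 7 were well above background in LSEC, 10 in HAK-1B TECs, 10 in Hepa1-6 TECs, 9 in KYN-2 TECs and 5 in cultured Hepa1-6 cells. Tnfrsf9, Pdcd1lg2 and Ctla4 were the members not above background in LSEC. By the rule of size 5 members were called higher in HAK-1B TECs (Tnfrsf9, Pdcd1lg2, Pdcd1, Havcr2 and Lag3), where 3.11% of all genes tested were called higher. In Hepa1-6 TECs 1 member, Tnfrsf9, was called higher, against 4.54% of all genes. In KYN-2 TECs 4 members were called higher (Tnfrsf9, Tnfsf9, Havcr2 and Lag3), against 3.64% of all genes. No member was called lower in a TEC (0 in each), where 3.94%, 2.04% and 2.87% of all genes were, in the same order. In all 3 TECs 1 member, Tnfrsf9, was called higher, against 0.580% of all genes. Because the members were chosen with these ratios known, nothing is read from the difference between those shares. Without the Z-score, at a ratio of 1.5 alone, 9, 7 and 8 members were higher, and 26.6%, 35.2% and 26.0% of all genes, while 0 members and 26.9%, 30.9% and 28.5% of all genes were lower. In all 3 TECs at once that ratio was reached by 6 members and 11.0% of all genes in the higher direction, and by 0 members and 17.8% in the lower. Over all 10 members, tested or not, the median log2 ratio to LSEC was 2.86, 2.20 and 1.44 in TECs of HAK-1B, of Hepa1-6 and of KYN-2. That of all genes tested was 0.00, 0.09 and -0.05. The list medians below likewise take in every gene of the list on the array, tested or not.

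**Figure D1:**
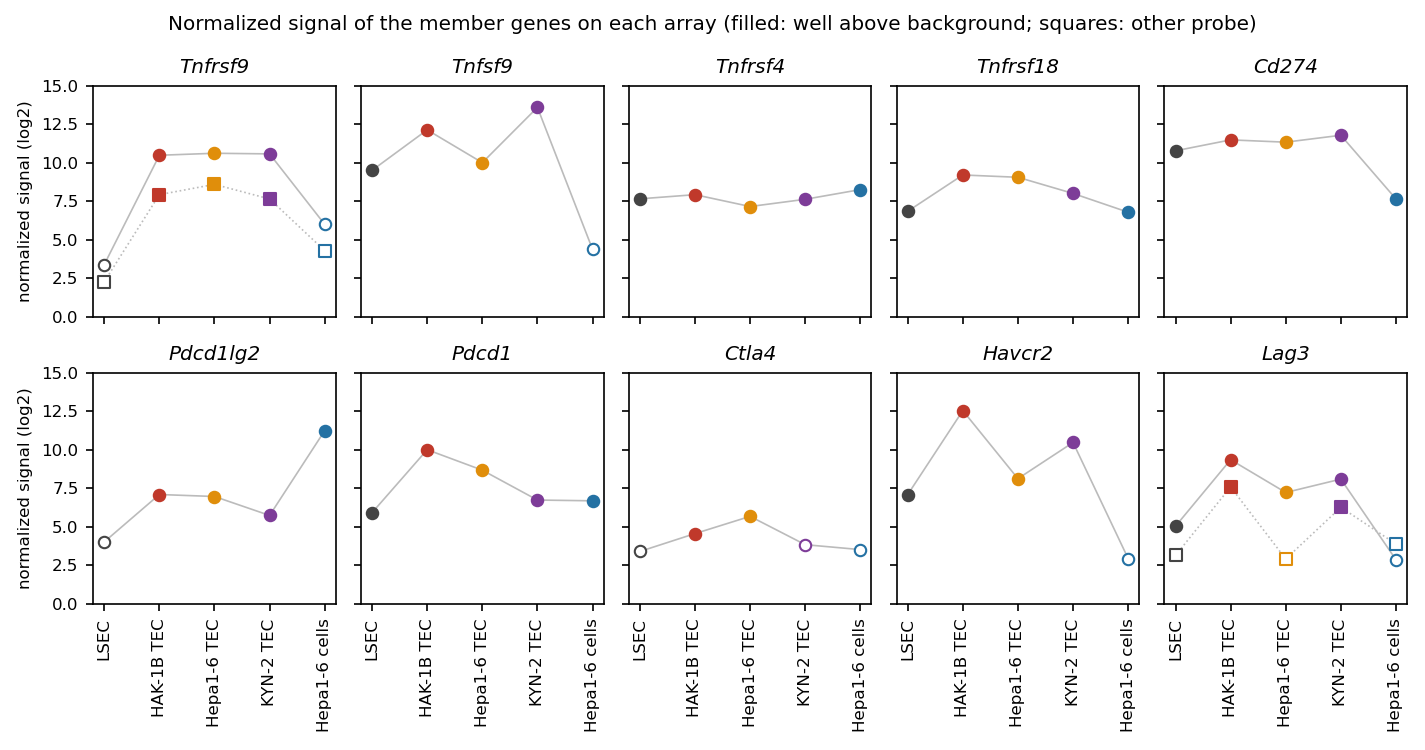
Normalized log2 signal (vertical axis) of each of the 10 member genes on the 5 arrays (horizontal axis), 1 array per condition, with grey lines only to guide the eye. Filled symbols are well above background, open symbols are not, and squares are the second probe of Tnfrsf9 and Lag3. The brighter probe of Tnfrsf9 lies between 10.50 and 10.63 in the 3 TECs, and both probes are open in LSEC and in cultured Hepa1-6 cells.

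Among the costimulatory receptors, Tnfrsf9 (the receptor also called CD137) had the widest separation of TECs from LSEC. Since Tnfrsf9 was chosen for being higher in every TEC, nothing is read from this rank. Its signal was 3.40 in LSEC, 10.50 in HAK-1B TECs, 10.63 in Hepa1-6 TECs, 10.59 in KYN-2 TECs and 6.01 in cultured Hepa1-6 cells. The LSEC and the cultured cell signals were not well above background, with intensities before normalization of 8.01 and 64.1 that carried spot errors of 76.1% and 23.2%, against intensities of 1480, 1740 and 914 in the TECs. Tnfrsf9 was thus measured in the 3 TECs and not measured in the other samples, and it was at least 56.4-fold higher than LSEC in HAK-1B TECs and at least 62.0-fold in Hepa1-6 TECs, with the bound of KYN-2 TECs between these. The 3 TECs spanned 0.14 on the log2 scale, less than the 0.20 that the error model gives for a ratio of bright spots, so their order is not resolved by this probe. The second probe was at 2.28 in LSEC, 7.94 in HAK-1B TECs, 8.61 in Hepa1-6 TECs, 7.66 in KYN-2 TECs and 4.30 in cultured cells, again above background in TECs alone. It spanned 0.95 over the TECs, with Hepa1-6 TECs highest and KYN-2 TECs lowest, so the level was even by the brighter probe only. It was at least 9.56-fold, 15.2-fold and 7.91-fold higher in the 3 TECs and was called in each. With normexp background correction the log2 ratios of the first probe were 4.30, 4.40 and 4.35, in place of 7.10, 7.23 and 7.19 on the normalized signals, and the calls stood. When a probe had to be present on both arrays, Tnfrsf9 was not tested, because LSEC is dim.

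Tnfsf9, the ligand of Tnfrsf9, was above background in LSEC too. Its signal was 9.52 in LSEC, 12.15 in HAK-1B TECs, 10.02 in Hepa1-6 TECs, 13.61 in KYN-2 TECs and 4.39, not above background, in cultured Hepa1-6 cells. Compared with LSEC it was 17.0-fold higher in KYN-2 TECs, which was called, 6.18-fold in HAK-1B TECs and 1.42-fold in Hepa1-6 TECs, which were not. Across TECs the ligand spanned 3.59 on the log2 scale where its receptor spanned 0.14 by the brighter probe and 0.95 by the other. In cultured cells Tnfsf9 was at least 11.8-fold lower than in LSEC. With normexp it was also called in HAK-1B TECs.

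Tnfrsf4 (OX40), a receptor of activated T cells, lay within a narrow range on every array. The signal was 7.67 in LSEC, 7.94 in HAK-1B TECs, 7.17 in Hepa1-6 TECs, 7.64 in KYN-2 TECs and 8.27 in cultured Hepa1-6 cells. It was not called in any comparison, and the highest ratio to LSEC was 1.52-fold, in the cultured cells. Its ligand Tnfsf4 was at 3.31 in LSEC, 5.15 in HAK-1B TECs, 7.25 in Hepa1-6 TECs, 3.70 in KYN-2 TECs and 9.19 in cultured cells. The ligand was not above background in LSEC and KYN-2 TECs, and it was called higher in Hepa1-6 TECs (at least 5.94-fold) and in cultured Hepa1-6 cells (at least 22.9-fold).

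Tnfrsf18 (GITR), a receptor of regulatory and activated T cells, was above background on all 5 arrays. It was at 6.86 in LSEC, 9.22 in HAK-1B TECs, 9.07 in Hepa1-6 TECs, 8.02 in KYN-2 TECs and 6.80 in cultured Hepa1-6 cells. These were ratios to LSEC of 5.14, 4.62 and 2.24 in the TECs, none past the Z-score, while LSEC and cultured cells differed by 0.06, within the spot error. Its ligand Tnfsf18 was at 4.49, not above background, in LSEC, 5.52 in HAK-1B TECs, 7.72 in Hepa1-6 TECs, 7.87 in KYN-2 TECs and 3.65, not above background, in cultured cells. The ligand was at least 1.80-fold, 8.23-fold and 9.12-fold higher in the 3 TECs and was called in KYN-2 TECs. Both Tnfrsf18 and its ligand thus had their lowest values in LSEC and cultured cells.

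The ligand Cd274 (PD-L1), which engages Pdcd1, was bright on all endothelial arrays. Its signal was 10.79 in LSEC, 11.50 in HAK-1B TECs, 11.35 in Hepa1-6 TECs, 11.80 in KYN-2 TECs and 7.66 in cultured Hepa1-6 cells. The TECs were 1.63-fold, 1.47-fold and 2.01-fold above LSEC and none was called, and cultured Hepa1-6 cells were 8.77-fold below it. The other ligand, Pdcd1lg2 (PD-L2), had the opposite order between tumor endothelium and tumor cells. It was at 4.02, not above background, in LSEC, 7.10 in HAK-1B TECs, 6.97 in Hepa1-6 TECs, 5.74 in KYN-2 TECs and 11.25 in cultured cells. Pdcd1lg2 was at least 94.8-fold higher in cultured cells than in LSEC, the only member called there (1 higher, against 2.59% of all genes, and 0 lower, against 4.81%). At a ratio of 1.5 or 0.66 alone, 3 members were higher in cultured cells, against 36.2% of all genes, and 4 (Tnfsf9, Cd274, Havcr2 and Lag3) were lower, against 37.7%. In TECs Pdcd1lg2 was at least 5.37-fold, 4.89-fold and 2.08-fold higher and was called in HAK-1B TECs, a call lost with normexp. The intensity of Pdcd1lg2 in Hepa1-6 TECs was 5.10% of that in cultured Hepa1-6 cells, and the normalized signal of 6.97 there stood beside 7.10 in TECs of HAK-1B, a human line, where the intensity was 136 against 181. The part of tumor cell RNA in the value of Hepa1-6 TECs was not tested.

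Pdcd1 (PD-1), the receptor of both ligands, was at 5.92 in LSEC, 10.01 in HAK-1B TECs, 8.68 in Hepa1-6 TECs, 6.74 in KYN-2 TECs and 6.69 in cultured Hepa1-6 cells. It was above background on all 5 arrays, high in HAK-1B and Hepa1-6 TECs and close to the cultured cells in KYN-2 TECs. The ratios to LSEC were 16.9, 6.78 and 1.77, of which the first was called. HAK-1B and KYN-2 TECs differed by 3.26 on the log2 scale.

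Ctla4, which competes with Cd28 for Cd80 and Cd86, was above background on 2 of the 5 arrays. Its signal was 3.40 in LSEC, 4.56 in HAK-1B TECs, 5.68 in Hepa1-6 TECs, 3.84 in KYN-2 TECs and 3.52 in cultured Hepa1-6 cells, with HAK-1B and Hepa1-6 TECs the arrays above background. It was at least 2.01-fold higher than LSEC in Hepa1-6 TECs, with no fold to be given elsewhere, and it was not called. The Ctla4 ligands Cd80 and Cd86 were bright in endothelial samples. Cd80 was at 10.60 in LSEC, 11.28 in HAK-1B TECs, 10.35 in Hepa1-6 TECs, 9.96 in KYN-2 TECs and 7.43 in cultured cells. Cd86 was at 11.30 in LSEC, 13.29 in HAK-1B TECs, 10.82 in Hepa1-6 TECs, 11.82 in KYN-2 TECs and 2.82, not above background, in cultured cells, where it was called lower. Neither ligand was called in a TEC. Cd28 was at 6.89 in LSEC, 7.28 in HAK-1B TECs, 6.26 in Hepa1-6 TECs and 9.31 in KYN-2 TECs.

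Havcr2 (TIM-3), a checkpoint of T cells that macrophages and dendritic cells also carry, varied most across TECs among the members, each taken by its brightest probe. The signal was 7.09 in LSEC, 12.55 in HAK-1B TECs, 8.13 in Hepa1-6 TECs, 10.48 in KYN-2 TECs and 2.94, not above background, in cultured Hepa1-6 cells. It was 43.8-fold higher than LSEC in HAK-1B TECs and 10.5-fold in KYN-2 TECs, both called, and 2.05-fold in Hepa1-6 TECs, which was not. The span over the TECs was 4.42 on the log2 scale. Its ligand Lgals9 was nearly level, at 11.40 in LSEC, 11.85 in HAK-1B TECs, 11.28 in Hepa1-6 TECs, 11.58 in KYN-2 TECs and 10.77 in cultured cells. The other partners of Havcr2 were not called either. Ceacam1 was at 9.99 in LSEC, 9.27 in HAK-1B TECs, 10.95 in Hepa1-6 TECs and 9.0 in KYN-2 TECs, and Hmgb1 at 14.14, 13.15, 14.29 and 12.81 on the same arrays.

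Lag3, a checkpoint that binds MHC class II, was at 5.04 in LSEC, 9.36 in HAK-1B TECs, 7.23 in Hepa1-6 TECs, 8.10 in KYN-2 TECs and 2.86, not above background, in cultured Hepa1-6 cells. It was 20.0-fold, 4.54-fold and 8.33-fold higher than LSEC, called in HAK-1B and KYN-2 TECs. Its second probe was at 3.14 in LSEC, 7.59 in HAK-1B TECs, 2.91 in Hepa1-6 TECs, 6.27 in KYN-2 TECs and 3.88 in cultured cells. This probe was above background in HAK-1B and KYN-2 TECs alone, where it was called at least 7.51-fold and 3.02-fold higher, so the probes disagree on Hepa1-6 TECs. With normexp the call of the first probe in KYN-2 TECs was lost.

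The ligands of Lag3 moved apart. Clec4g (LSECtin), a lectin that marks LSECs, was at 18.04 in LSEC, 13.67 in HAK-1B TECs, 14.26 in Hepa1-6 TECs, 14.17 in KYN-2 TECs and 3.02, not above background, in cultured cells. It was called lower in each TEC, by 20.7-fold, 13.8-fold and 14.6-fold, and it was the only partner called in all 3. Lgals3, a galectin, was at 14.45 in LSEC, 15.93 in HAK-1B TECs, 16.00 in Hepa1-6 TECs and 17.28 in KYN-2 TECs, where it was called 7.14-fold higher. Fgl1, a protein secreted by hepatocytes, was at 9.82, 12.06, 10.51 and 11.19 on these arrays and was not called. Of the 11 partner genes, 0, 1 and 2 were called higher and 1, 1 and 1 lower in TECs of HAK-1B, of Hepa1-6 and of KYN-2, with medians of 0.68, 0.15 and 0.39. Of all genes, 3.11%, 4.54% and 3.64% were called higher and 3.94%, 2.04% and 2.87% lower.

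**Figure D2:**
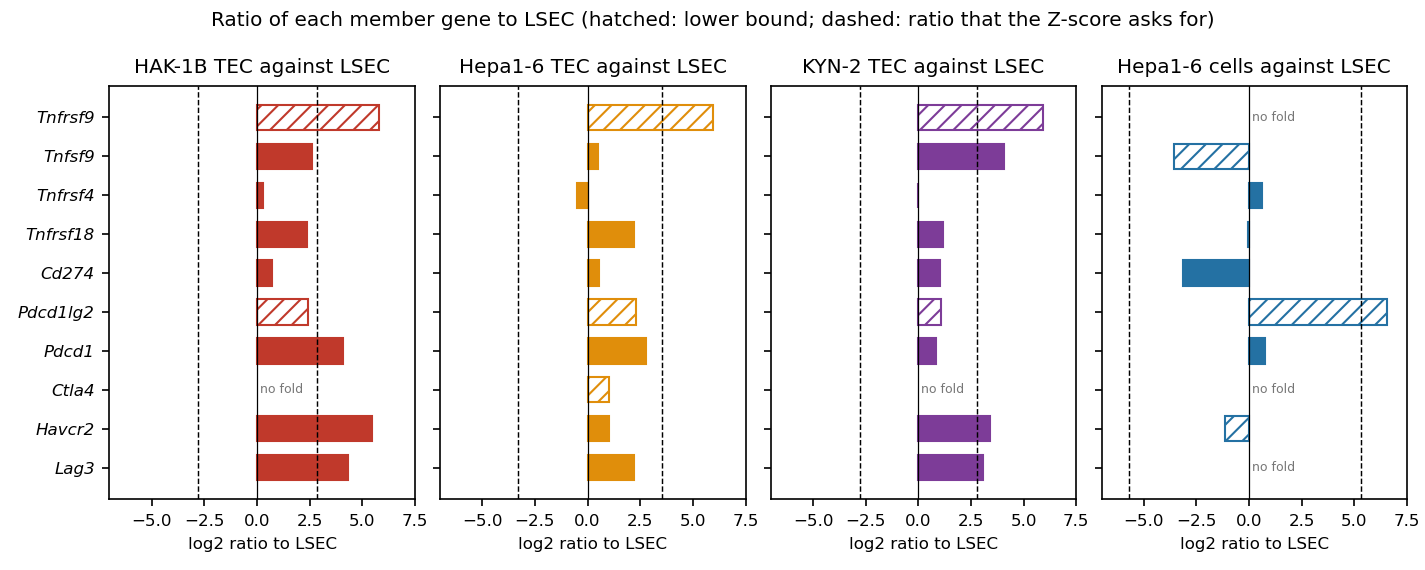
Log2 ratio to LSEC (horizontal axis) of each member gene (rows) in the 3 TECs and in cultured Hepa1-6 cells, 1 array each. Hatched bars are lower bounds, solid bars are measured on both arrays, and "no fold" stands where no bound could be given. Dashed lines are the ratios that the Z-score asks for, which apply to normalized signals, so that Pdcd1lg2 in HAK-1B TECs was called although its bound of 5.37-fold stays below 7.25-fold. Tnfrsf9 passes the line in every TEC, and Pdcd1lg2 is the member that passes it in cultured cells.

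The rest of the TNF superfamily was described from a list of 40 genes, 39 of them matched by name. In TECs of HAK-1B, of Hepa1-6 and of KYN-2 4, 2 and 3 of its 33, 37 and 33 tested genes were called higher and 0, 0 and 1 lower. Of all genes, 3.11%, 4.54% and 3.64% were called higher and 3.94%, 2.04% and 2.87% lower. None of the list was called in all 3 TECs (0 of 32 tested in each direction), where 0.580% of all genes were called higher and 1.00% lower. The list medians were 0.47, 0.31 and 0.19. Tnfrsf11b (osteoprotegerin, a decoy receptor) was at 3.41 in LSEC, 3.76 in HAK-1B TECs, 11.70 in Hepa1-6 TECs and 4.99 in KYN-2 TECs, at least 130-fold higher in Hepa1-6 TECs. Ngfr, a neurotrophin receptor, was at 4.16, 4.60, 10.22 and 6.38 on the same arrays and was at least 46.7-fold higher in Hepa1-6 TECs. Tnfsf13b (BAFF, a survival factor of B cells) was at 4.15, 8.97, 4.46 and 7.57 and was called at least 19.6-fold higher in HAK-1B TECs and 7.43-fold in KYN-2 TECs. Each of these genes was high in some tumors and not in others. Tnfrsf9 was chosen for being higher in every TEC, so nothing is read from a contrast with it. At the ratio alone, 8 genes of the list were higher in all 3 TECs, against 11.0% of all genes. In the lower direction it was 4 genes, against 17.8%.

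Of 15 adaptors and NF-kB genes downstream of these receptors, 1, 0 and 0 were called higher in TECs of HAK-1B, of Hepa1-6 and of KYN-2, against 3.11%, 4.54% and 3.64% of all genes. In each TEC 0 were called lower, against 3.94%, 2.04% and 2.87% of all genes. At the ratio alone 9, 1 and 5 of the 15 were higher, against 26.6%, 35.2% and 26.0% of all genes, and 0, 6 and 1 were lower, against 26.9%, 30.9% and 28.5%. Traf1, an adaptor of Tnfrsf9, was at 8.33 in LSEC, 11.70 in HAK-1B TECs, 8.40 in Hepa1-6 TECs and 9.77 in KYN-2 TECs, and was called 10.3-fold higher in HAK-1B TECs. Birc3 was at 9.0, 10.97, 8.94 and 9.83, and Nfkb2 at 10.69, 12.33, 11.24 and 11.03, on these arrays. In Hepa1-6 TECs, Traf1 and Birc3 were near their LSEC level and Nfkb2 was 1.47-fold higher, none of them called. A link of these genes to the level of Tnfrsf9 was not tested. The list medians were 0.90, -0.37 and 0.39. The 14 interferon-gamma inducible genes had medians of -0.66, -1.47 and -0.76, with 0 called higher and 1, 0 and 0 called lower, beside the same shares of all genes. At the ratio alone 2, 0 and 0 of the 14 were higher and 8, 10 and 10 lower, beside the shares given for the adaptors. In all 3 TECs at once 0 were higher, against 11.0% of all genes, and 7 lower, against 17.8%. Cxcl9, a T cell chemokine, was at 10.80 in LSEC, 7.46 in HAK-1B TECs, 8.07 in Hepa1-6 TECs and 10.20 in KYN-2 TECs. Socs1 and Irf1 had mean log2 ratios of -1.54 and -1.40 and were not called.

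Among 20 other checkpoint genes 1, 1 and 0 were called higher and 1, 0 and 0 lower in the TECs, with medians of 0.30, -0.05 and 0.02. Of all genes, 3.11%, 4.54% and 3.64% were called higher and 3.94%, 2.04% and 2.87% lower. Cd276 (B7-H3) was at 4.63, not above background, in LSEC, 8.67 in HAK-1B TECs, 8.86 in Hepa1-6 TECs, 7.35 in KYN-2 TECs and 10.08 in cultured Hepa1-6 cells. It was at least 15.9-fold, 18.1-fold and 6.37-fold higher in TECs, the last not called. Vsig4, an inhibitory receptor of Kupffer cells, was at 14.04, 10.04, 11.97 and 11.72 in LSEC and the TECs and was called lower in HAK-1B TECs. Icos, a T cell costimulator, was at 11.44, 9.56, 9.09 and 9.14 and was not called.

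Markers of the cells in which the members are best known were set beside them. Of 15 T cell genes 14 were above background in LSEC and 14, 14 and 12 in the TECs, with median log2 ratios of 0.05, -0.79 and -0.36. The summed signal was 10400 in LSEC and 8250 to 9660 in TECs. In cultured Hepa1-6 cells it was 3990, with 4 of the 15 genes above background. Cd8a was not above background in LSEC, HAK-1B TECs or KYN-2 TECs. Cd3e was at 9.92 in LSEC, 9.20 in HAK-1B TECs, 8.87 in Hepa1-6 TECs and 9.91 in KYN-2 TECs. The Cd3e probe also read 8.77, above background, in cultured Hepa1-6 cells, so its signal was not particular to samples with T cells. Other genes of the list differed. Cd2 was at 9.87 in LSEC, 9.96 in HAK-1B TECs, 9.02 in Hepa1-6 TECs and 9.40 in KYN-2 TECs, and at 2.30, not above background, in cultured cells. Cd3d was at 7.59, 7.64, 5.54 and 9.37, and at 4.56, not above background, in cultured cells. No T cell gene was called higher in a TEC (0 in each), against 3.11%, 4.54% and 3.64% of all genes. The largest mean ratios were those of Cd6 (-2.44), Zap70 (1.49) and Bcl11b (-1.22). The part of T cells in the level of Tnfrsf9 was not tested. Of 6 regulatory T cell genes 4 were above background in LSEC and 4, 5 and 3 in TECs, with sums of 379 in LSEC and 194 to 979 in TECs. Foxp3, which defines these cells, was at 5.24 in LSEC, 3.69 in HAK-1B TECs, 4.26 in Hepa1-6 TECs and 3.43 in KYN-2 TECs, above background in LSEC and Hepa1-6 TECs. The lowest signal well above background was 2.85 in Hepa1-6 TECs, 4.68 in LSEC, 4.28 in HAK-1B TECs and 4.65 in KYN-2 TECs. A Foxp3 signal of 4.26 would thus lie below that limit in LSEC and in the other TECs. Il2ra was at 6.29, 9.31, 4.76 and 6.52 and was called 8.11-fold higher in HAK-1B TECs. Ikzf4 was at 6.59, 6.68, 3.48 and 5.81.

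NK and cytotoxic cell genes were above background for 7 of 10 in LSEC and 10 of 10 in each TEC, with sums of 2840 in LSEC and 2680, 34400 and 4240 in TECs of HAK-1B, of Hepa1-6 and of KYN-2. Ncr1, which defines NK cells, was at 4.61, not above background, in LSEC, 6.52 in HAK-1B TECs, 8.38 in Hepa1-6 TECs and 6.22 in KYN-2 TECs. Klrb1c was at 3.56, 6.60, 6.38 and 5.78 on these arrays, and Gzma at 9.35, 8.47, 14.85 and 11.18. Tnfrsf9 and Ncr1 were both above background in every TEC and not in LSEC. The same held for Pdcd1lg2, Tnfsf18, Cd276, Mgarp and Col1a1, among others, and the share of all genes with this pattern was not counted. The part of NK cells in the level of Tnfrsf9 was not tested.

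Myeloid markers were strong on all endothelial arrays. The 14 macrophage genes summed to 1040000 in LSEC and 543000 to 1010000 in TECs, with medians of 0.14, -1.20 and -1.0, and the Kupffer cell genes Clec4f, Cd5l and Timd4 had mean ratios of -3.40, -3.32 and -2.91. The 10 dendritic cell genes had medians of -0.22, 0.15 and 0.15 and sums of 126000 in LSEC and 63800 to 106000 in TECs, with Zbtb46 and Clec9a at mean ratios of -3.32 and -2.36. In cultured Hepa1-6 cells the dendritic cell sum was 39300 with 1 of the 10 genes above background. Such sums add different probes and follow the brightest genes. Itgax (CD11c) was at 8.53 in LSEC, 14.75 in HAK-1B TECs, 13.11 in Hepa1-6 TECs and 12.96 in KYN-2 TECs, called 74.8-fold, 23.9-fold and 21.6-fold higher. Of 12 neutrophil genes 7 were above background in LSEC and 12, 12 and 10 in TECs, with medians of 6.00, 4.35 and 1.38. In the TECs 11, 8 and 3 of them were called higher, against 3.11%, 4.54% and 3.64% of all genes. The neutrophil sums were 91600 in LSEC and 221000, 83800 and 85100 in the TECs. In cultured Hepa1-6 cells the neutrophil sum was 39100 with 2 of the 12 genes above background. Mmp9, Il1r2 and Mmp8 were called higher in all 3 TECs, with mean ratios of 8.23, 5.90 and 4.75. Havcr2 and Lag3 had the same order of TECs as each other (HAK-1B, then KYN-2, then Hepa1-6). The macrophage medians and the sums of the macrophage, dendritic cell and neutrophil lists ran in this order too. The dendritic cell and neutrophil medians did not. The T cell, regulatory T cell, B cell and adaptor lists ran in it by sums and by medians, so this order was not particular to myeloid lists. The part of myeloid RNA in the member levels was not tested.

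**Figure D3:**
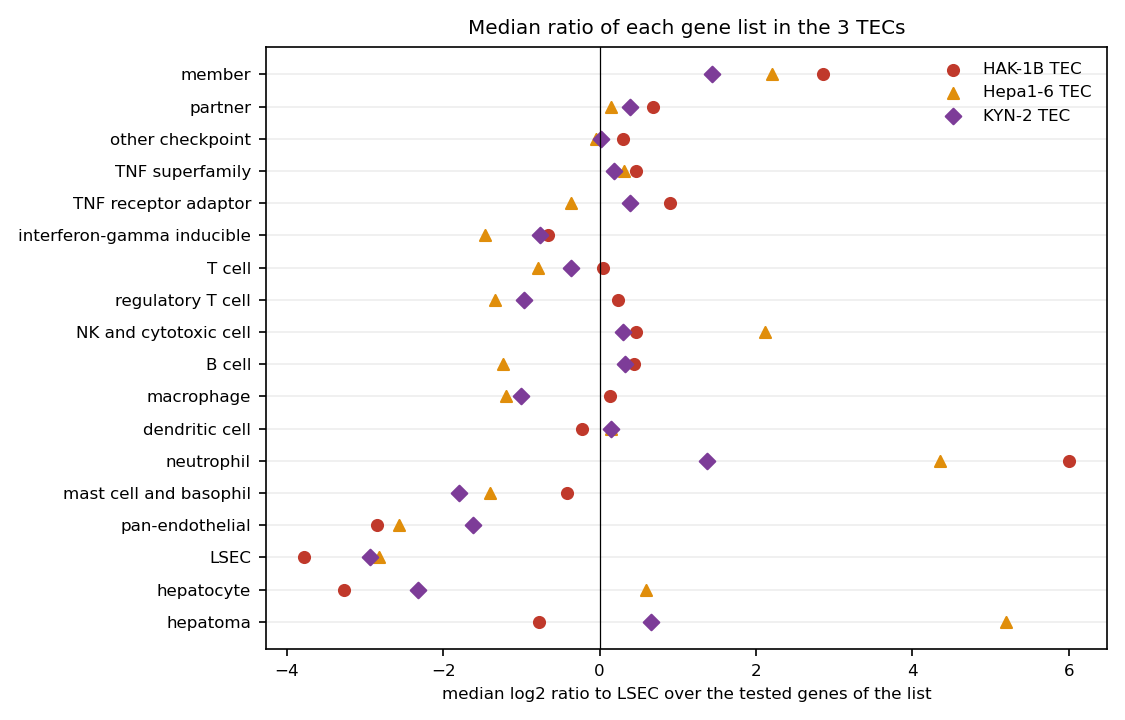
Median log2 ratio to LSEC (horizontal axis) of each list (rows) in HAK-1B TECs (circles), Hepa1-6 TECs (triangles) and KYN-2 TECs (diamonds), 1 array each. The medians take in every gene of a list on the array, although the axis title says tested genes. The members lie at 2.86, 2.20 and 1.44, the T cell genes at 0.05, -0.79 and -0.36 and the neutrophil genes at 6.00, 4.35 and 1.38.

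The genes whose pattern over the 5 arrays was most like that of Tnfrsf9 were taken by the root mean square (RMS) difference of log2 signals, each centred on the gene's own mean, among 18785 genes above background on at least 3 arrays. The smallest differences were those of Mgarp (0.868), Eps8 (0.906), Eno2 (0.991), Trim29 (1.01) and Col1a1 (1.05), against a median of 3.12 over all candidates. Eps8, an actin-binding signalling protein, was at 5.49 in LSEC, 10.46 in HAK-1B TECs, 10.68 in Hepa1-6 TECs, 10.29 in KYN-2 TECs and 7.22 in cultured Hepa1-6 cells. Mgarp, a mitochondrial protein, was at 4.57, 10.09, 9.48, 11.33 and 6.79 on the same arrays. Eno2, a glycolytic enolase, was at 3.57, 11.61, 10.18, 12.83 and 7.77. All of these were low in LSEC and higher in every TEC. Trim29 was at 2.72, 6.92, 7.67, 8.0 and 2.84, and Col1a1, a fibrillar collagen, at 4.72, 9.46, 10.87, 11.53 and 4.70, and neither was above background in LSEC or in cultured cells, like Tnfrsf9. Ranked by Pearson's r instead, 1 of the 5 genes, Eps8, was again among the first 5. The likeness describes 5 arrays and says nothing about shared control.

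**Figure D4:**
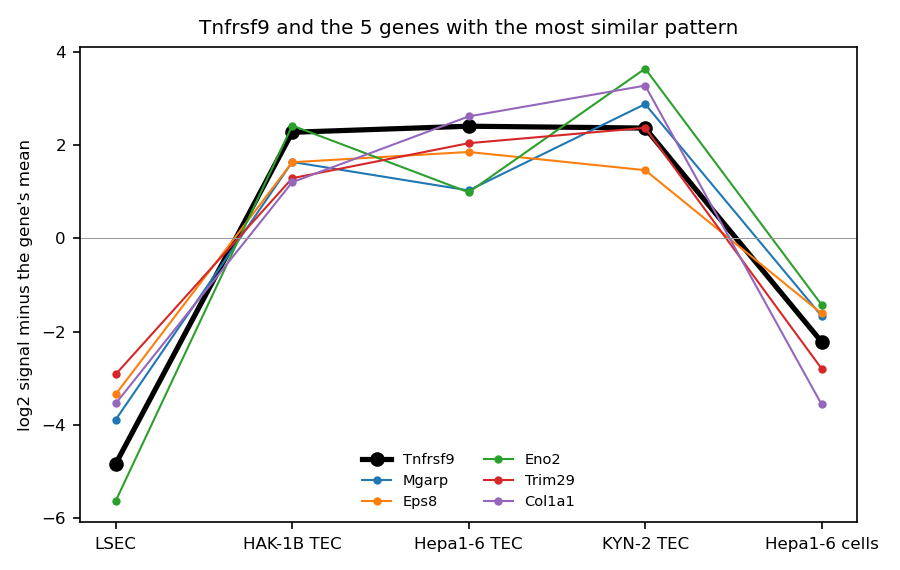
Log2 signal minus the gene's own mean over the 5 arrays (vertical axis) for Tnfrsf9 (thick black line) and the 5 genes most like it, by array (horizontal axis), 1 array per condition. Every gene is lower in LSEC and cultured Hepa1-6 cells than in each of the 3 TECs. The values of Tnfrsf9 in LSEC and cultured cells are not well above background, whereas Mgarp, Eps8 and Eno2 are well above background in cultured cells.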

How the data were processed

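Per the labels, RNA was amplified, labelled with Cy3 and hybridized, and the methods name a 60-mer array. The labels give Agilent Feature Extraction 9.5.1.1, the file headers 10.7.1.1. The authors deposited, for every spot, a linear intensity from which background had been subtracted (gProcessedSignal), the raw mean, the local background and flags of 0 or 1, and also a table of normalized intensity values.

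Spots of the same probe were averaged, without control spots. No probe was saturated (0). Quantile normalization was applied to log2 signals of all 5 arrays, whereas the methods normalize the samples compared, and 4460 lincRNA probes were left out of the comparisons, as were probes flagged present on neither array. Groups came from the labels. With 1 array per condition no test was run, and precision is limited by the number of arrays. The code of the calling rule was checked on simulated arrays, with large changes set in bright probes and every probe flagged present. That check does not cover dim probes or the wider spread of ratios in these data. Alternatives were scaling to the 75th percentile, normalization by pair, normexp correction (offset 50) in limma 3.58.1 (R 4.3.3), the deposited table, other flag and probe rules, no Z-score, and each TEC left out. Other steps used Python 3.11.15, numpy 2.4.6 and pandas 2.3.3, and figures matplotlib 3.10.9.

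The members and all 19 gene lists, together 233 entries, were chosen with earlier results of these data known. The genes named are all members and partners, the 5 genes most like Tnfrsf9, and up to 3 genes of each list with the largest absolute mean ratio. Cd2, Cd3d, Cd3e and Cd8a were named after their values were seen. Promoter windows (250 bases before to 50 after the start) and gene symbols are from RefSeq, GRCm38.p6, and motifs were searched on both strands.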

Additional observations from a re-analysis of the deposited data

Results flagged for a closer look

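Several of the genes named above or in the marker lists had a ratio to LSEC of at least 1.5 in 1 tumor line and of at most 0.66 in another. These differences between lines were not tested, since each line had 1 array. Among partners of the members, Cd28 had a log2 ratio of 2.42 in KYN-2 TECs and -0.63 in Hepa1-6 TECs, Cd80 of 0.68 in HAK-1B TECs and -0.64 in KYN-2 TECs, and Ceacam1 of 0.97 in Hepa1-6 TECs and -0.99 in KYN-2 TECs. Il2ra was at 3.02 in HAK-1B TECs and -1.52 in Hepa1-6 TECs, and the granzyme gene Gzma at 5.50 in Hepa1-6 TECs and -0.88 in HAK-1B TECs. The hepatocyte gene Alb was at 2.57 in Hepa1-6 TECs and -6.46 in HAK-1B TECs, and the keratin gene Krt18 at 6.25 in Hepa1-6 TECs and -1.12 in HAK-1B TECs. None of the 10 members went both ways by these ratios.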

How the results depend on the processing

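No paired analysis was possible because there was 1 array for every condition. The 3 TECs shared a slide, but with LSEC and cultured cells on slides of their own no comparison with LSEC could take slide as a block. Without the Z-score the members called higher were 9, 7 and 8 in TECs of HAK-1B, of Hepa1-6 and of KYN-2, 6 in all 3 TECs and 3 in cultured Hepa1-6 cells, where 4 were called lower. When a probe had to be present on both arrays, 0 members were called higher in all 3 TECs and 0 in cultured cells, because Tnfrsf9 and Pdcd1lg2 are dim in LSEC, and 1 (Cd274) was called lower in cultured cells. In cultured cells 1 member, Tnfsf9, was called lower with scaling to the 75th percentile and 1 without a flag filter. With each TEC left out in turn, 1 to 3 members were called higher in the TECs that remained, against 0.761% to 1.44% of all genes, and the 3 without Hepa1-6 TECs (where 1.44% of all genes were called) were Tnfrsf9, Havcr2 and Lag3. Over the members the median of the mean log2 ratio of the TECs was 2.48, and 1.61 with normexp, which lifts dim signals by its offset. Of the 5 genes most like Tnfrsf9, 1 was shared with Pearson's r. Of 200 member ratios under the other scalings and probe rules, 175 stayed within 1.5-fold and 25 moved further, and 0 of the called ratios changed sign. The 175 include the median over probes of members with 1 probe, which equals the main ratio by construction. Scaling to the 75th percentile moved the median of all probes in Hepa1-6 TECs from 0.05 to 0.43 on the log2 scale.

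Depth does not apply to arrays. The floor of signals well above background, which was 4.68 in LSEC on the log2 scale and 5.96 in cultured cells, limits what can be said of Tnfrsf9, Pdcd1lg2 and Ctla4 there. This floor was 4.28 in HAK-1B TECs, 2.85 in Hepa1-6 TECs and 4.65 in KYN-2 TECs, so dimmer signals count as above background in Hepa1-6 TECs. A single array per condition leaves the spread between animals unknown.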

Other observations

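Other cell type lists showed no gene called higher in the TECs (0 in each for B cells and for mast cells and basophils). Of all genes, 3.11%, 4.54% and 3.64% were called higher in TECs of HAK-1B, of Hepa1-6 and of KYN-2. The 7 B cell genes had medians of 0.44, -1.24 and 0.33 in TECs of HAK-1B, of Hepa1-6 and of KYN-2, with mean ratios of -0.94 for Cd22, -0.87 for Ms4a1 and -0.37 for Blk. The 8 mast cell and basophil genes had medians of -0.41, -1.40 and -1.80, with Gata2 at a mean of -1.90, Cpa3 at -1.80 and Mcpt4 at -1.52. Endothelial genes were lower in the TECs than in LSEC, with medians of -2.84, -2.56 and -1.62 for the pan-endothelial list and -3.78, -2.82 and -2.93 for the LSEC list. Tek, Kdr and Eng had mean ratios of -3.85, -3.47 and -2.90, and Oit3 and Cd209f of -4.20 and -3.94. Hepatocyte genes had medians of -3.27, 0.59 and -2.32, with Serpina1a at a mean of -3.96 and Ttr at -2.68. Hepatoma genes had medians of -0.77, 5.20 and 0.66, and H19 and Gpc3 had means of 3.70 and 2.31. The 8 housekeeping genes had medians of 0.08, 0.06 and -0.08, with Gapdh at a mean of 1.00, B2m at -0.88 and Hprt at -0.56.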
